A study of Mus musculus with 16 samples.

Results

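The gonads of germ-free and conventionally raised mice were compared to ask whether the absence of microbes goes with the same change of transcript levels in the ovary as in the testis. The data were total RNA sequencing of 16 libraries, which is every library of the series, in 4 groups chosen by their labels. Females gave the ovaries, 4 libraries from conventionally raised (CV) and 5 from germ-free (GF) mice. Males gave the testes, 4 libraries from CV and 3 from GF mice. GF mice live in isolators without bacteria or other microbes, and CV mice carry an ordinary gut microbiota. In all 4 groups the strain was C57BL/6j, the age 15 to 16 weeks, feeding was unrestricted, and tissue was taken at zeitgeber time 2 to 4, the hours after lights on. No group carried a transgene or a drug treatment in the labels. The labels give no animal numbers, breeding colony, cage or ovarian cycle stage, so p-values measure the spread between these libraries, part of which may be technical. Gonad and sex are a single factor here and cannot be told apart, and the same holds for germ-free status and any difference between colonies.

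The measure throughout is the response difference, that is, the log2 ratio of GF to CV in the testis less the same ratio in the ovary. It is positive where the testis responded more in the upward direction. Levels are CPM, a gene's counts relative to the library total, scaled by edgeR's TMM method over the 16 libraries. A gene is said to be called at an adjusted p under 0.05 in edgeR's quasi-likelihood test with Benjamini-Hochberg adjustment over all genes tested. The ovary houses oocytes within follicles of granulosa and theca cells, and the testis houses the germ cell lineage with its Sertoli and Leydig cells. Most testis RNA comes from meiotic and post-meiotic germ cells, which use many genes that somatic tissues keep silent. In bulk tissue, fewer cells of a type and less RNA per cell cannot be told apart.

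The libraries matched their labels, by levels that in this paragraph are CPM of the raw library total. Ovary libraries held 12912251 to 15907297 counts each and testis libraries 25880591 to 28266867. Xist, transcribed from the inactive X chromosome, lay between 1120 and 1520 CPM in ovaries and reached at most 5.1 CPM in a testis. Prm1, a sperm protamine, lay between 2810 and 3070 CPM in testes and reached at most 0.503 CPM in an ovary. Zp3, an egg coat protein, lay between 16.7 and 27.8 CPM in ovaries and reached at most 0.295 CPM in a testis. The biological coefficient of variation was 18.5% among ovary libraries and 4.17% among testis libraries, and 14% in the joint fit that the response difference came from.

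Few genes were called for the response difference, and a gene without a call is not shown to have responded alike in the 2 gonads. Of 21977 genes tested, 29 were called (0.132%), 16 higher in the testis response (0.0728%) and 13 lower (0.0592%). At an unadjusted p under 0.05 there were 1524 genes (6.93%), and 1151 (7.14%) among the 16131 genes measured in both gonads, which are those that passed the expression filter of each gonad's own fit. The size of the response difference over the 29 called genes had a median of 1.03 on the log2 scale, from 0.34 to 8.36, and exceeded 1 in 16 of them. Sorted by each gonad's own test, 22 of the 29 were called for germ-free status in the testis alone, 2 in the ovary alone, 2 in both gonads in the same direction and 3 in neither. None was called in both gonads in opposite directions. With the ovary library number as a block, the joint fit called 172 genes. These were sorted by that joint fit's own contrast for each gonad, not by separate tests. The split was then 53 in the testis alone, 87 in the ovary alone, 12 in both alike, 7 in both in opposite directions and 13 in neither. The block and the source of the gonad calls changed together here, and their parts were not told apart. The testis test on its own called 1638 of 20269 genes (8.08%; 3.67% higher and 4.41% lower in GF). The ovary test called 32 of 18095 (0.177%; 0.111% higher and 0.0663% lower). The larger number of testis calls went with a smaller spread between testis libraries and more counts per library.

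The number of called genes depended on single testis libraries. It was 13 without GF testis library 3, 14 without GF testis library 2 and 14 without CV testis library 3. It was 17 without GF testis library 1, 18 without CV testis library 2, 18 without CV testis library 4 and 19 without CV testis library 1. Leaving out an ovary library gave 21 to 37 calls. The 172 genes called with the ovary number as a block, a fit that leaves out GF ovary library 5, held all 29. DESeq2 called 127 genes and limma-voom with a weight for each gonad 52, and 25 of the 29 were called by all 3 tools. 12 genes kept their call in every alternative that gave an adjusted p, namely Mapkapk2, Hist1h2bp, Pom121l2, Ryr2, Hes1, Swt1, Akr1c21, Hist1h2ae, Dars, Zscan12, Nnt and Gdi2. RLE scaling ended 5 calls (Tenm3, Camsap3, Ogfod2, Itga2 and Rabgap1l, adjusted p 0.0514 to 0.0631) and raw totals 4 (Fam193b, Ogfod2, Itga2 and Lgals8, up to 0.0574). Using no filter ended 3 (Camsap3, Rabgap1l and Fcgr3, up to 0.106), dispersions without robust estimation 5 (Gm11398, Ogfod2, Itga2, Rabgap1l and Lgals8, up to 0.0596) and limma-voom 2 (Scly and Cage1, up to 0.0658). A block by library number in both gonads ended 12 calls, with an adjusted p of 0.0525 to 0.179. These were Rab4a, Speer4c, Kdm4a, Calml4, Fam193b, Tenm3, Camsap3, Gm15372, Gm11398, Ogfod2, Rabgap1l and Lgals8. Akr1c21 had no adjusted p in DESeq2, and neither it nor Pom121l2 was tested where only genes measured in each gonad were kept. No called gene changed the sign of its log2 response difference in any fit.

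**Figure D1:**
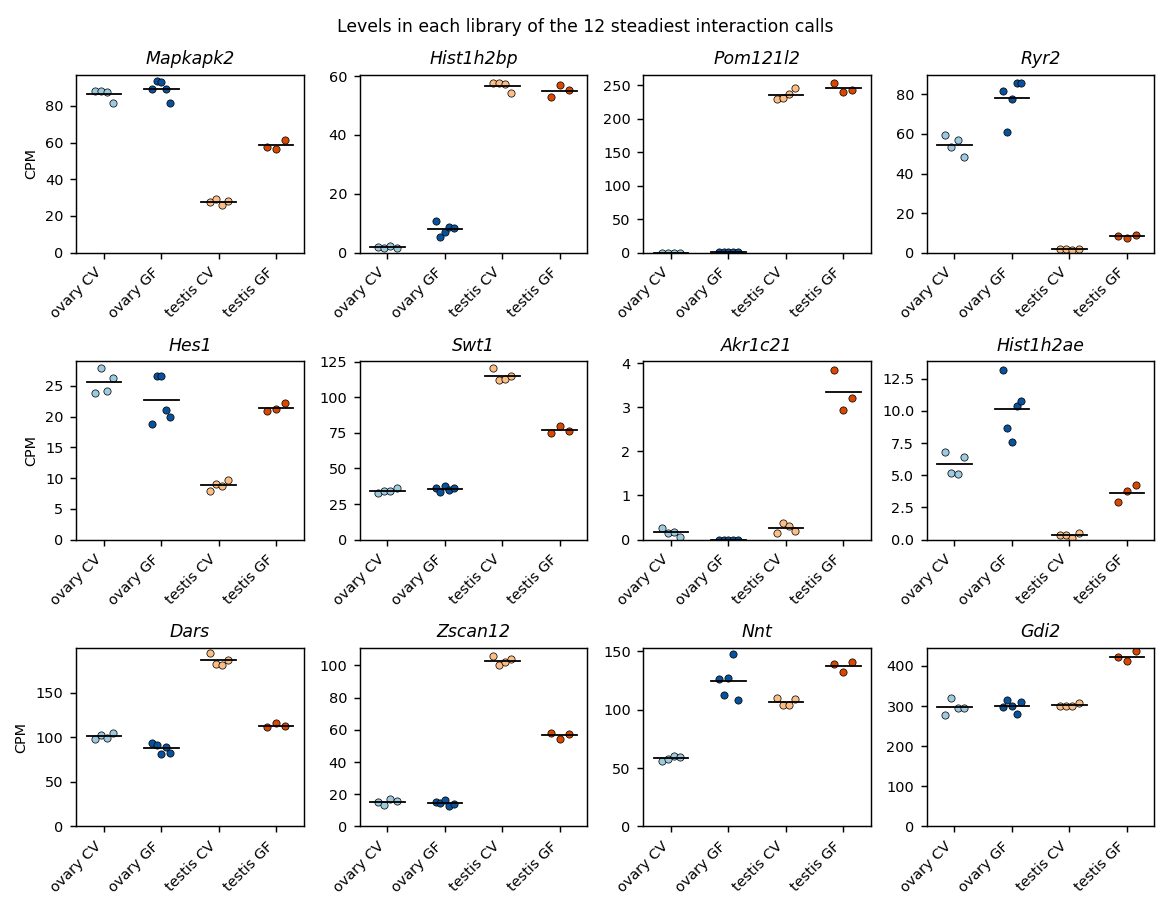
Level of 12 genes in each library, in CPM on linear axes that start at 0, by group (4 CV ovaries, 5 GF ovaries, 4 CV testes, 3 GF testes). Points are libraries and bars are group means. The genes are those called in every alternative that gave them an adjusted p. Mapkapk2, Hes1, Gdi2, Swt1 and Zscan12 separate the testis groups while their ovary groups overlap, and Hist1h2bp separates the ovary groups while its testis groups overlap.

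Among the genes with the higher response in the testis, Mapkapk2, the kinase that the stress-activated p38 MAP kinases switch on, had the smallest p. Its level was 27.8, 29.1, 26.1 and 28 CPM in CV testes and 57.5, 56.7 and 61.6 CPM in GF testes. In CV ovaries it was 88.1, 88.0, 87.4 and 81.4 CPM, and in GF ovaries 89.4, 93.7, 93.0, 89.0 and 81.4 CPM. The testis groups were far apart and the ovary groups overlapped, with the lowest value of each ovary group at the same level. Mapkapk2 rose in the testis by 1.10 on the log2 scale (SE 0.055, adjusted p = 3.46e-18) against 0.05 in the ovary (SE 0.055, adjusted p = 0.913). Its response difference was 1.03 (SE 0.078, 95% interval 0.86 to 1.19, adjusted p = 5.38e-06).

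Hes1, a transcriptional repressor and classical target of Notch signalling, stood at 7.95, 9.11, 8.64 and 9.61 CPM in CV testes and at 20.9, 21.2 and 22.3 CPM in GF testes. In the ovary the CV libraries read 23.8, 28, 24.2 and 26.3 CPM and the GF libraries 18.8, 26.7, 26.6, 21.1 and 20 CPM. The level of GF testes thus came up to the range of GF ovaries, and 3 of 5 GF ovaries lay below every CV ovary. The response difference of Hes1 was 1.46 (SE 0.16, adjusted p = 0.000199), with a testis rise of 1.30 (adjusted p = 3.74e-15) and an ovary value of -0.18 (adjusted p = 0.842). Of 19 tested genes of the Notch pathway, Hes1 was the only one called for the response difference. Notch4, a receptor of the pathway found mainly on endothelium, had a value of -0.86 (adjusted p = 0.471) and fell in the testis, and Hey1, another target repressor, had -0.05 (adjusted p = 0.992). The median over the 19 genes was -0.0113, beside -0.0168 over all 16131 genes measured in both gonads.

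Gdi2, which holds Rab GTPases in their inactive form away from membranes, was the most abundant of these genes. CV testes read 300, 300, 300 and 307 CPM and GF testes 421, 413 and 436 CPM. CV ovaries read 278, 321, 296 and 294 CPM and GF ovaries 298, 315, 300, 279 and 310 CPM. The other 3 groups overlapped one another, and all GF testes lay above them. The response difference of Gdi2 was 0.47 (SE 0.070, adjusted p = 0.00542). Its transcripts share 8.11% of their 100-base words with the opposite strand of Fam208b, which overlaps it.

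Rab4a, a Rab GTPase of recycling endosomes, rose in the testis from 4.49 ± 0.55 CPM (SD, n = 4) to 10.3 ± 0.668 CPM (n = 3). Its ovary means were 9.41 ± 0.364 CPM (n = 4) and 10.6 ± 0.888 CPM (n = 5), with overlapping groups. The response difference was 1.03 (adjusted p = 0.00533). Its call was lost only with the library number as a block in both gonads (adjusted p = 0.0561).

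Ryr2, the ryanodine receptor that releases calcium from internal stores and is best known from heart muscle, differed in both gonads in size. CV testes read 1.75, 1.83, 1.22 and 1.76 CPM and GF testes 8.18, 7.28 and 9.16 CPM. CV ovaries read 59.4, 53.3, 56.9 and 48.3 CPM and GF ovaries 81.7, 61.1, 77.5, 85.8 and 85.7 CPM. Neither gonad's groups overlapped, although the ovary difference of 0.52 did not pass its own test (adjusted p = 0.144). The response difference was 1.79 (SE 0.19, adjusted p = 0.000162), with a testis rise of 2.34 (adjusted p = 1.62e-14). In absolute terms the order was the opposite, since the mean difference was 23.9 CPM in the ovary and 6.57 CPM in the testis.

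Other testis rises kept their call in fewer of the alternative fits. Scly, the lyase that recovers selenium from selenocysteine, read 19.2, 19.2, 16.7 and 19.7 CPM in CV testes and 34.4, 45.8 and 48.8 CPM in GF testes. The ovary groups overlapped, at 7.63 ± 1.61 CPM (SD, n = 4) in CV and 7.16 ± 1.20 CPM (n = 5) in GF. Scly had a response difference of 1.30 (SE 0.21, adjusted p = 0.0166). Leaving out CV testis library 3, GF testis library 2 or GF testis library 3 ended this call, with an adjusted p of 0.0552 to 0.0942, as did limma-voom (adjusted p = 0.0658). Speer4c, of a rodent family of spermatogenesis-associated glutamate-rich proteins, rose in the testis from 5.29 ± 0.496 CPM (n = 4) to 11.3 ± 1.24 CPM (n = 3), with a response difference of 1.43 (adjusted p = 0.0162). Its call ended without GF testis library 2 or 3 (adjusted p 0.0742 to 0.0782), and 67% of its 100-base words occur in other genes of the family, so its counts are uncertain. Gsdmd, which forms the membrane pores of pyroptotic cell death, rose in the testis from 6.27 ± 1.15 CPM (n = 4) to 14.3 ± 0.299 CPM (n = 3). Its ovary groups, at 13.3 ± 1.64 CPM (n = 4) and 14.1 ± 2.33 CPM (n = 5), overlapped and lay at the level of GF testes. Gsdmd had a response difference of 1.11 (adjusted p = 0.0395).

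3 further genes of this direction were the calmodulin-like gene Calml4, the microtubule minus-end binding gene Camsap3 and the Rab regulator Rabgap1l. Like Gsdmd they were chosen after their values were seen. Calml4 rose in the testis from 2.44 ± 0.443 CPM (SD, n = 4) to 5.67 ± 0.963 CPM (n = 3), and its ovary groups overlapped at 7.31 and 6.68 CPM. Its response difference was 1.35 (adjusted p = 0.0201). Camsap3 rose in the testis from 22.9 ± 2.06 CPM (n = 4) to 30.0 ± 1.12 CPM (n = 3) and had ovary means of 12.3 CPM in CV and 10.2 CPM in GF. Its response difference was 0.66 (adjusted p = 0.0462). Rabgap1l had the smallest difference of all called genes, 0.34 (SE 0.064, adjusted p = 0.0474). Its CV ovaries read 105, 98.1, 105 and 99.8 CPM against 86.1, 91.1, 85.3, 88.9 and 84.2 CPM in GF ovaries, and its testis means were 134 CPM in CV and 145 CPM in GF. The groups of Rabgap1l did not overlap in either gonad and lay in opposite order, but only the testis difference was called (adjusted p = 0.0173, against 0.168 in the ovary). The call of Calml4 ended in 3 of 16 fits that leave out a library, that of Gsdmd in 9, that of Camsap3 in 13 and that of Rabgap1l in 14. Without GF testis library 3, where each reached its highest value, their adjusted p was 0.113, 0.149, 0.149 and 0.168.

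Fcgr3, a receptor for the constant part of IgG on macrophages and natural killer cells, read 21.2, 21.7, 20.1 and 22.0 CPM in CV testes and 56.7, 55.3 and 54.6 CPM in GF testes. CV ovaries read 10.3, 17.7, 15.9 and 13.1 CPM and GF ovaries 12.5, 13.7, 20.1, 8.61 and 11.4 CPM. The testis groups were tight and wide apart, and the ovary values scattered over a range that both groups shared. Fcgr3 rose in the testis by 1.41 (SE 0.056, adjusted p = 5.38e-21), and its response difference was 1.49 (SE 0.27, adjusted p = 0.0474). The summed level of 21 macrophage and MHC class II genes, Fcgr3 included, in CPM of the raw library total, was 533 to 576 CPM in CV testes and 559 to 573 CPM in GF testes, and 1030 to 1330 CPM and 754 to 1450 CPM in CV and GF ovaries. All 21 were detected and tested, Fcgr3 alone was called for the response difference, and what part cell numbers have in its values was not tested. In the testis Lyz2, a lysozyme of phagocytes, fell by 0.22 on the log2 scale (adjusted p = 0.0493) and Mpeg1, a pore-forming protein of macrophages, fell by 0.28 (adjusted p = 0.0215). Cd74, the MHC class II chaperone, had a response difference of -0.67 (adjusted p = 0.695). The call of Fcgr3 ended in 13 of 16 fits without a library, with an adjusted p of up to 0.149 without GF testis library 2, and with no filter on low counts (adjusted p = 0.0981).

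Akr1c21, an aldo-keto reductase that acts on hydroxysteroids, was near the limit of detection in the ovary. CV ovaries gave 12 counts in all and GF ovaries none, and CV stood 5.07-fold above a floor of 3 counts over the GF group. The 95% interval of the GF to CV ratio in the ovary, for counting error alone, reached up to 0.284, which allows a smaller fold. In the testis 20 counts in 4 CV libraries stood against 196 in 3 GF libraries, a ratio of 13 (95% interval 8.18 to 21.7, counting error only). GF testes read 3.85, 2.95 and 3.21 CPM against 0.159, 0.367, 0.305 and 0.195 CPM in CV testes. The gene was called (adjusted p = 0.00168), and since a group is at 0 its fitted response difference depends on the prior count and is no bound. It did not pass the expression filter of the ovary's own fit.

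Genes with a testis response in the downward direction included several at higher levels in the testis. Swt1, an RNA endonuclease of the nucleus, read 121, 112, 113 and 115 CPM in CV testes and 75.0, 80.1 and 76.4 CPM in GF testes. CV ovaries read 32.9, 34.4, 34.2 and 36.1 CPM and GF ovaries 36.5, 33.5, 37.7, 35.1 and 36.0 CPM. The ovary groups overlapped within a narrow band, and the testis groups stood well apart. Swt1 had a response difference of -0.63 (SE 0.071, 95% interval -0.78 to -0.48, adjusted p = 0.000309).

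Zscan12, a zinc finger protein gene, read 106, 100, 102 and 104 CPM in CV testes and 58.1, 54.2 and 57.6 CPM in GF testes. Its CV ovaries read 15.4, 13.1, 16.8 and 15.8 CPM and its GF ovaries 15.0, 14.3, 16.5, 12.4 and 14.1 CPM. It fell in the testis by 0.85 on the log2 scale (adjusted p = 3.46e-18), against -0.08 in the ovary (adjusted p = 0.926), and the response difference was -0.79 (SE 0.11, adjusted p = 0.00482).

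Dars, the aspartyl-tRNA synthetase of the cytosol, read 194, 182, 181 and 187 CPM in CV testes and 111, 116 and 112 CPM in GF testes. CV ovaries read 97.9, 102, 98.7 and 105 CPM and GF ovaries 93.8, 90.8, 81.6, 88.9 and 82.3 CPM. Both gonads were lower without overlap in GF, the ovary by -0.21 without passing its own test (adjusted p = 0.435). The response difference was -0.52 (SE 0.072, adjusted p = 0.00384).

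4 further genes fell in the testis with overlapping ovary groups. Kdm4a, a demethylase of histone H3, went from 42.9 ± 1.13 CPM (SD, n = 4) to 31.2 ± 0.466 CPM (n = 3) in the testis and had ovary means of 81.2 and 85.2 CPM, with a response difference of -0.53 (adjusted p = 0.0181). Ogfod2, of the oxygenases that use iron and 2-oxoglutarate, went from 32.2 ± 0.569 CPM (n = 4) to 20.6 ± 1.39 CPM (n = 3) in the testis, with a response difference of -0.71 (adjusted p = 0.0474). Fam193b went from 20.5 ± 0.725 CPM (n = 4) to 15.5 ± 1.02 CPM (n = 3) in the testis and had ovary means of 50.8 CPM in CV and 56.5 CPM in GF, with a response difference of -0.56 (adjusted p = 0.0387). Itga2, a subunit of a collagen-binding integrin, went from 6.13 ± 0.543 CPM (n = 4) to 3.90 ± 0.51 CPM (n = 3) in the testis. In the ovary it read 21.5, 17.5, 15.3 and 16.9 CPM in CV and 28.4, 19.9, 20.8, 27.8 and 22.6 CPM in GF, and its response difference was -1.08 (adjusted p = 0.0474). All 4 had ovary and testis values of opposite sign, with only the testis called. Calls of these genes ended in 5 of 16 fits without a library for Kdm4a, 9 for Fam193b, 13 for Itga2 and 14 for Ogfod2. Their adjusted p then reached 0.0806 without GF testis library 3, 0.160 without GF testis library 3, 0.197 without GF testis library 2 and 0.163 without GF testis library 1.

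**Figure D2:**
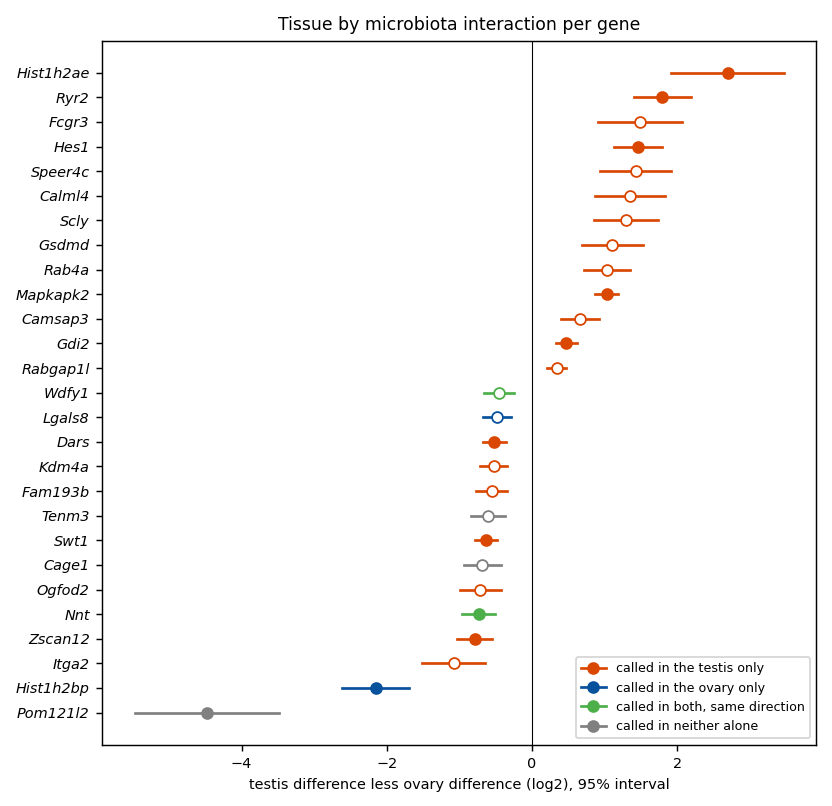
Response difference (testis response less ovary response, log2) of 26 called genes and Wdfy1, with 95% intervals from edgeR's fit over 16 libraries. Colour gives the gonads in which the gene was called on its own, and filled points mark genes called in every alternative that gave them an adjusted p. Akr1c21 and the 2 called predicted genes are not drawn. The values run from Pom121l2 at -4.48 to Hist1h2ae at 2.69, and the interval of the uncalled Wdfy1 runs from -0.67 to -0.25. The drawn interval of Pom121l2 is narrower than its counting error, since CV ovaries hold 1 count.

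Genes called in the ovary alone were 2. Hist1h2bp, a histone H2B gene, read 2.07, 1.54, 2.16 and 1.69 CPM in CV ovaries and 10.8, 5.41, 6.94, 8.67 and 8.26 CPM in GF ovaries. In the testis it read 57.7, 57.6, 57.3 and 54.4 CPM in CV and 52.9, 56.8 and 55.2 CPM in GF. Every GF ovary lay above every CV ovary, and the testis groups overlapped at a level above all ovaries. It rose in the ovary by 2.10 (SE 0.22, adjusted p = 0.00205), and the response difference was -2.15 (SE 0.22, 95% interval -2.61 to -1.69, adjusted p = 0.000162). Lgals8, a galectin that binds carbohydrate chains, rose in the ovary from 54.0 ± 1.61 CPM (SD, n = 4) to 76.1 ± 7.84 CPM (n = 5, adjusted p = 0.0280) and had testis means of 354 ± 13.1 CPM (n = 4) and 356 ± 4.50 CPM (n = 3). Its response difference was -0.49 (adjusted p = 0.0474), a call that ended in 14 of 16 fits without a library, with an adjusted p of up to 0.187 without GF testis library 2.

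3 genes with a called response difference were called in neither gonad alone. Pom121l2, related to a nuclear pore membrane protein, was a testis gene with 1 count in all 4 CV ovaries and 43 counts in the 5 GF ovaries. The GF to CV ratio of these ovary counts was 33.9 (95% interval 5.77 to 1370, counting error only). GF ovaries read 0.442, 0.411, 0.338, 0.462 and 0.659 CPM. CV testes read 229, 231, 237 and 245 CPM and GF testes 253, 240 and 242 CPM, which overlapped. The response difference was -4.48 (SE 0.47, adjusted p = 0.000162) and rests on an ovary level under 1 CPM. With 1 count in CV ovaries, this fitted value depends on the prior count. Its SE is narrower than the counting error of the ovary ratio. Over the fits that gave an adjusted p it ran from -6.11 to -3.67. Pom121l2 did not pass the ovary's own expression filter and so had no ovary test. Cage1, a gene of male germ cells, read 6.48, 4.98, 6.35 and 5.90 CPM in CV ovaries, 10.4, 8.70, 9.70, 9.76 and 7.4 CPM in GF ovaries, and 828 and 798 CPM on average in CV and GF testes. Tenm3, a teneurin of cell surfaces, had ovary means of 27.4 ± 2.10 CPM (SD, n = 4) in CV and 38.1 ± 3.57 CPM (n = 5) in GF, and testis means of 49.3 ± 2.71 CPM (n = 4) and 45 ± 1.31 CPM (n = 3). The groups of Cage1 and Tenm3 did not overlap in either gonad, with GF higher in the ovary and lower in the testis, and their response differences were -0.68 (adjusted p = 0.0319) and -0.61 (adjusted p = 0.0387). Over all 21977 genes, groups did not overlap in 2.44% of genes in the ovary and 16.2% in the testis. The call of Cage1 ended in 10 of 16 fits without a library and that of Tenm3 in 13, with an adjusted p of up to 0.123 and 0.136, both without GF testis library 2.

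Nnt, the mitochondrial transhydrogenase that makes NADPH from NADH with the proton gradient, rose in both gonads. C57BL/6J mice are known to carry a deletion within this gene. CV ovaries read 55.6, 57.8, 59.9 and 59.5 CPM and GF ovaries 126, 113, 127, 148 and 108 CPM. CV testes read 110, 104, 104 and 109 CPM and GF testes 139, 132 and 141 CPM. GF lay above CV without overlap in both gonads, and the step was wider in the ovary. Nnt rose by 1.09 in the ovary (SE 0.087, adjusted p = 0.000391) and by 0.38 in the testis (SE 0.036, adjusted p = 4.32e-10), and the response difference was -0.73 (SE 0.11, 95% interval -0.96 to -0.51, adjusted p = 0.00528). Counts per gene cannot show which exons the reads came from. In GENCODE M21, 46.1% of the 100-base words of Nnt also occur in another gene entry of the same name. Of 26 tested genes of NADPH supply and peroxide defence, Nnt was the only one called, and the median of the 26 was -0.0445. Gpx3, a secreted glutathione peroxidase, had a response difference of 1.15 that was not called (adjusted p = 0.638).

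Wdfy1, an endosomal protein with a lipid-binding FYVE domain, rose in both gonads as well. CV ovaries read 27.8, 25.0, 24.9 and 22.1 CPM and GF ovaries 51.2, 63.6, 53.7, 58.4 and 56.8 CPM. CV testes read 131, 132, 129 and 122 CPM and GF testes 205, 218 and 215 CPM. Neither gonad's groups overlapped, and the fold was again larger in the ovary while the mean difference was larger in the testis, at 84.4 CPM against 31.8 CPM. Its response difference of -0.46 (SE 0.099, adjusted p = 0.101) was not called in the main test. It was called without CV ovary library 1 (adjusted p = 0.0431), by DESeq2 (adjusted p = 0.00180) and with the ovary number as a block (adjusted p = 0.0248).

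Genes called in both gonads moved in the same direction. Of 31 ovary calls that were measured in both gonads, 30 had a testis value of the same sign, and 27 were called in the testis too, all in the same direction. Of these 27 genes 2 had a called response difference, Nnt and the predicted gene Gm11398. Of 1145 testis calls measured in both gonads, 688 (60.1%) had an ovary value of the same sign, beside 52.7% of all 16131 genes measured in both, and 23 (2.01%, beside 0.167% of the genes measured in both) had a called response difference. The response difference contains the testis difference of the same libraries, so a higher share among testis calls is built in. The median size of the testis log2 ratio over the 1638 testis calls was 0.224, and that of the ovary over its 32 calls was 1.95. The median SE of the response difference was 0.231 over all genes tested, a wider set than the testis calls. Across the 16131 genes the log2 ratios of the 2 gonads had a Pearson r of 0.311 and a Spearman rho of 0.0609, a description across genes that are not independent. Over 8160 genes at 10 CPM or more in both gonads, r was 0.239 and rho 0.101.

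**Figure D3:**
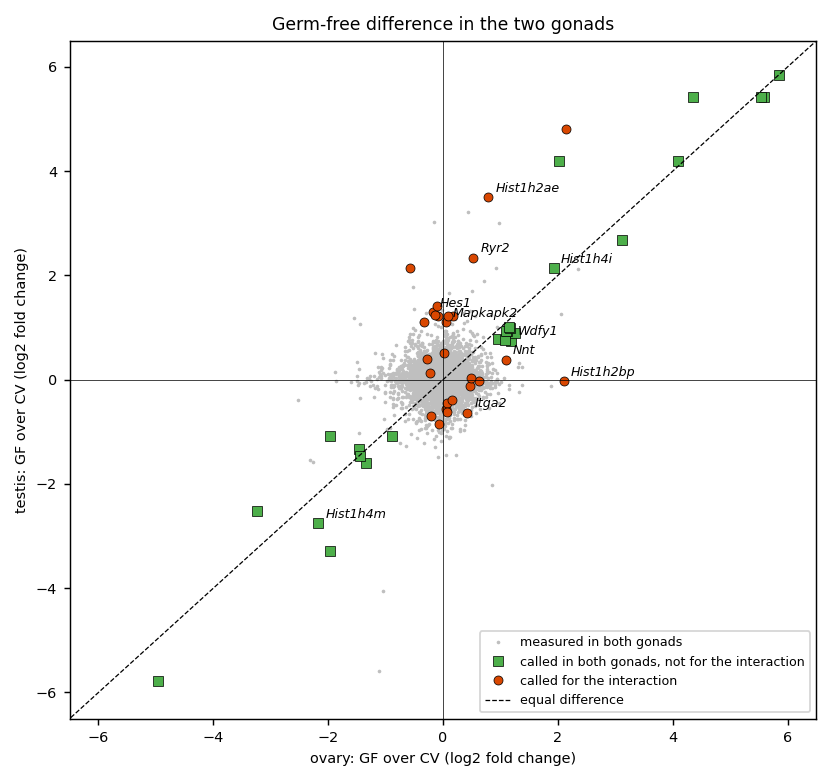
GF over CV log2 ratio of each gene in the ovary (horizontal axis) and in the testis (vertical axis), for genes measured in both gonads. Grey points are all such genes, green squares genes called in both gonads but not for the response difference, and orange circles genes called for the response difference; the dashed line marks equal responses. Green squares lie along the dashed line in both directions, which their choice by these calls favours. Most orange circles lie near the vertical axis, with Hist1h2bp near the horizontal axis at 2.10.

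A further 6 genes, Wdfy1 and the 5 that follow, were chosen as the most precise among those called in both gonads without a called response difference, so that their lack of a call is part of the choice. Ero1lb, which forms disulphide bonds in the endoplasmic reticulum, fell by 0.89 in the ovary on the log2 scale and by 1.08 in the testis. Its level was 31.0 ± 2.81 and 16.7 ± 1.57 CPM in CV and GF ovaries (SD, n = 4 and 5) and 369 ± 10.1 and 172 ± 4.68 CPM in CV and GF testes (n = 4 and 3). Its response difference was -0.21 (95% interval -0.418 to -6.07e-05, adjusted p = 0.721). Efcab7, a calcium-binding ciliary protein, rose by 0.95 in the ovary and 0.79 in the testis, with a response difference of -0.19 (95% interval -0.43 to 0.058, adjusted p = 0.803). Hist1h4i, a histone H4 gene, rose by 1.93 and 2.14, with a response difference of 0.19 (95% interval -0.21 to 0.59, adjusted p = 0.882). Hist1h4n rose by 1.26 and 0.89 and Dynlt1b, a dynein light chain, by 1.09 and 0.92, and their response differences were -0.39 (95% interval -0.777 to -0.00296, adjusted p = 0.716) and -0.19 (95% interval -0.554 to 0.173, adjusted p = 0.868). The unadjusted intervals of Ero1lb and Hist1h4n do not include 0. Over 80% of the 100-base words of Hist1h4n and of Dynlt1b, 80.7% and 82%, occur in near-identical copies, so counts for these 2 genes may be split among copies.

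Called genes lay unevenly over the genome (positions from GENCODE M21 on GRCm38, also named mm10). Chromosome 13 held 13 of the 29 called genes (44.8%) and 3.68% of the genes tested, and 1.61% of its 809 tested genes were called. Chromosome 1 held 7 (24.1%) and 5.64% of the genes tested, and 0.565% of its 1240 tested genes were called. The other 9 called genes lay on 6 chromosomes, 3 of them on chromosome 8 and 2 on chromosome 5, and the remaining chromosomes held none. On chromosome 13 the called genes ran along most of its length. Gdi2 (3538063 to 3567871) and Akr1c21 (4574075 to 4586541) lay near the proximal end. Ryr2 (11553102 to 12106945), a long gene, and Lgals8 (12439415 to 12464944) lay next. Ero1lb, which had no called response difference, lay beside them at 12565874 to 12611396. The bin from 20 to 25 Mb, which holds the main histone gene cluster, had 5 called genes of 93 tested, and 34 of the 93 were called for germ-free status in the testis and 9 in the ovary, beside 8.08% and 0.177% of all genes in each gonad's test. The bin from 10 to 15 Mb, with Ryr2, Lgals8 and Ero1lb, had 2 called genes of 27 tested, and 13 of the 27 were called in the testis and 9 in the ovary. Nnt (119335448 to 119408997) lay at the far end. On chromosome 1 the 7 genes lay in 7 separate bins of 5 Mb, from 85 to 175 Mb, among them Dars at 128363707 to 128417368 and Mapkapk2 at 131053700 to 131097826. Every position in this paragraph is on GRCm38 and covers the whole annotated gene, exons and introns together.

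The histone cluster held called genes of both directions. Replication-dependent histone genes are short genes without introns that are transcribed in S phase, and many lie as head-to-head pairs of an H2A and an H2B gene with a common stretch between their start sites. Of 50 such genes tested, 1 was called higher and 1 lower for the response difference, and 10 (20%) had an unadjusted p under 0.05, beside 6.93% of all genes. In the testis 14 of the 49 measured in both gonads were called higher and 10 lower, and in the ovary 7 were called. Among all 16131 genes measured in both, the testis had 605 higher and 540 lower and the ovary 31 called. Hist1h2ae, an H2A gene, read 0.371, 0.314, 0.102 and 0.488 CPM in CV testes and 2.90, 3.79 and 4.22 CPM in GF testes. CV ovaries read 6.79, 5.19, 5.10 and 6.4 CPM and GF ovaries 13.2, 8.70, 7.56, 10.4 and 10.8 CPM. GF lay above CV without overlap in both gonads, and only the testis passed its own test (adjusted p = 5.69e-12, against 0.232 in the ovary). The response difference was 2.69 (SE 0.37, adjusted p = 0.00340), while the mean difference was 4.26 CPM in the ovary and 3.32 CPM in the testis. The testis ratio of Hist1h2ae rests on 25 counts over all CV testes. Of its 100-base words, 30.7% occur on the same strand of other histone genes and 17% on the opposite strand of other genes. For Hist1h2bp the same-strand share is 31.1%. The predicted gene Gm11398, all of whose 100-base words also occur in the overlapping genes Hist1h2be and Hist1h1e, rose from 0.612 to 2.70 CPM in the ovary and from 0.117 to 3.33 CPM in the testis, with a response difference of 2.63 (adjusted p = 0.0474). The other predicted gene with a call, Gm15372 on chromosome 1, had means of 1.14 and 0.761 CPM in CV and GF ovaries and 0.232 and 1.02 CPM in CV and GF testes, with a response difference of 2.68 (adjusted p = 0.0474). Each lost its call in 13 of 16 fits without a library, Gm11398 with an adjusted p of up to 0.155 without CV testis library 2 and Gm15372 of up to 0.166 without GF testis library 3. The library type uses total RNA without poly(A) selection, which retains the non-polyadenylated transcripts of these genes.

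Neither partner of Hist1h2ae and Hist1h2bp across the start sites had a called response difference. Hist1h2bg, divergent from Hist1h2ae, had a response difference of -0.01, with 0.31 in the ovary and 0.32 in the testis. Hist1h2an, divergent from Hist1h2bp and of the same sign, had -0.49 (adjusted p = 0.851). Its values were -0.56 in the ovary and -1.03 in the testis, where it was called (adjusted p = 0.00307). The stretches between the start sites are shown because each pair shares a single one while only 1 of its members was called. Members of a pair were not tested against each other. They come from RefSeq on GRCm38.p6, plus strand, 5′ to 3′, at chr13:23571221-23571395 for the first pair and chr13:21787219-21787460 for the second. Capitals mark CCAAT and TATAAA on either strand, the reverse strand reading as ATTGG and TTTATA.
Hist1h2ae and Hist1h2bg: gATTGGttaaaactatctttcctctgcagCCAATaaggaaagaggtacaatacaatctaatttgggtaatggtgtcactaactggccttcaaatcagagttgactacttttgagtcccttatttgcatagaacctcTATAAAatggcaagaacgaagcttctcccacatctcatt
Hist1h2an and Hist1h2bp: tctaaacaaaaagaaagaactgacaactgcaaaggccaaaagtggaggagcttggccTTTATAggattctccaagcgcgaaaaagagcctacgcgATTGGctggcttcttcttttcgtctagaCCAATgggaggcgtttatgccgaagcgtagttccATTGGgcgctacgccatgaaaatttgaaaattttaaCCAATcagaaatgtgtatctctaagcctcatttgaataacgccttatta
The first stretch, of 175 bases, holds 2 CCAAT and 1 TATAAA, and the second, of 242 bases, holds 4 CCAAT and 1 TATAAA. Of 32851 RefSeq promoters cut to 175 bases, 27% hold CCAAT and 8.65% TATAAA, and cut to 242 bases 33.1% and 12%. These matches describe letters and are not shown to be binding sites.

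Hormone and clock genes did not have a called response difference. Star, which carries cholesterol into mitochondria for steroid synthesis, had a value of -0.16 (95% interval -1.34 to 1.02, adjusted p = 1). Cyp17a1, the androgen-forming enzyme of theca and Leydig cells, had -0.05 (95% interval -2.47 to 2.37, adjusted p = 1). GF ovaries ranged from 12.7 to 926 CPM for Cyp17a1, so a response difference smaller than several fold could not be seen for it. Lhcgr, the receptor of luteinising hormone, had 0.94 (95% interval -0.78 to 2.67), Fshr, the receptor of follicle-stimulating hormone, 0.05 (95% interval -0.76 to 0.85) and Amh, the anti-Müllerian hormone, -0.29 (95% interval -1.17 to 0.58). Insl3, a peptide hormone of Leydig and theca cells, had -0.88 (adjusted p = 0.650), and was called with the ovary number as a block (adjusted p = 0.0265). It read 2.70, 2.22, 3.96 and 4.05 CPM in CV ovaries and 4.91, 5.23, 4.17, 10.4 and 3.34 CPM in GF ovaries, and shares 58.2% of its 100-base words with Jak3, which overlaps it. The clock genes were measured more tightly. Per1 had a response difference of 0.14 (95% interval -0.09 to 0.37), Arntl -0.32 (95% interval -0.73 to 0.08), Dbp 0.18 (95% interval -0.36 to 0.71) and Nr1d1 -0.14 (95% interval -0.73 to 0.45). None of 23 clock genes had an unadjusted p under 0.05 in edgeR's test.

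Gene groups were described by the median response of their members in each gonad, beside all 16131 genes measured in both, of which 45.9% had a positive response difference with a median of -0.0168. Interferon-stimulated genes had a median of 0.252 in the ovary and 0.00314 in the testis, and 4 of 28 had a positive response difference. None of them was called. Isg15, a ubiquitin-like antiviral protein, is not among the 28 because its testis level did not pass the filter, and its value of -2.63 (adjusted p = 0.342) rests on that low level. Cell cycle and replication genes had a median of 0.170 in the ovary and 0.030 in the testis, and 3 of 26 were positive. Mcm6, a subunit of the replicative helicase, was an exception to that direction at 0.56 (adjusted p = 0.449) and rose in the testis by 0.48 (adjusted p = 9.89e-08), while Mcm7 of the same helicase had -0.36 (adjusted p = 0.457). Steroidogenesis genes had 3 of 17 positive and a median of -0.109. Adipocyte markers had all 14 positive with a median of 0.516, and none of them had an unadjusted p under 0.05. Their part in the ovary values was not tested. The summed level of all 15, in CPM of the raw library total, ran from 442 to 3790 CPM in CV and from 129 to 3400 CPM in GF ovaries, and from 280 to 322 CPM and 300 to 321 CPM in CV and GF testes. Clock genes had 18 of 23 positive, with a median of 0.089. Across all 43 lists, 5 genes were called for the response difference, namely Hist1h2ae, Hist1h2bp, Hes1, Nnt and Fcgr3.

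**Figure D4:**
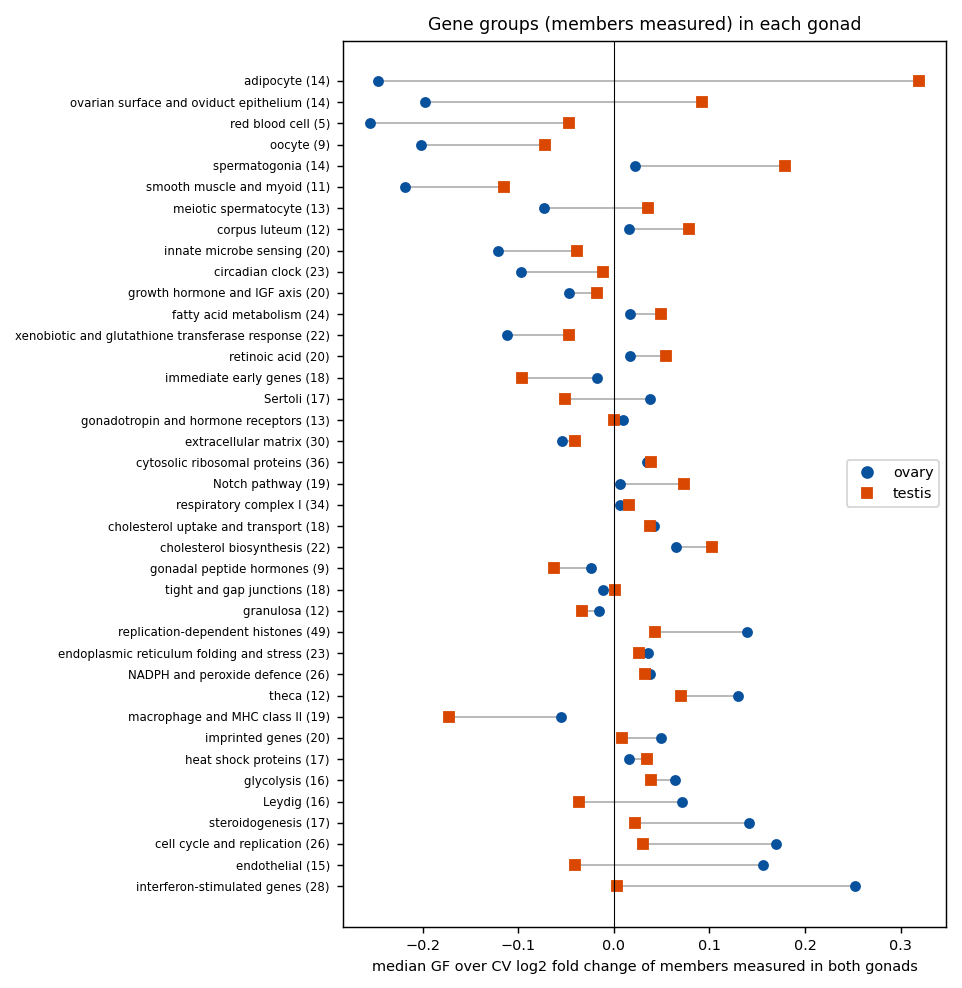
Median GF over CV log2 ratio of the members of each gene list in the ovary (blue circles) and testis (orange squares), for lists with at least 5 members measured in both gonads, with the number of members in brackets. Lists are ordered by their median response difference. Adipocyte markers have the widest gap, from -0.247 in the ovary to 0.319 in the testis, and interferon-stimulated genes the widest gap in the other direction, from 0.252 to 0.00314. Medians carry no test.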

How the data were processed

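RNA of whole ovaries and testes was made into stranded total RNA libraries after ribosomal RNA depletion, per the labels' protocols. The authors deposited a table of whole-number counts per gene for 38087 genes and 16 libraries, without normalisation. STAR 2.4.0i and mm10 are named in the submitters' processing notes, and the sources used here do not give the counting tool, its annotation or whether it used strand. Overlapping genes or near-identical copies may therefore share or split reads. Positions and shared 100-base words were computed from GENCODE M21 transcripts, joined by gene identifier.

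The response difference was tested with edgeR 4.0.16 in R 4.3.3 (group means of 4 groups, TMM, filterByExpr, robust quasi-likelihood fit, Benjamini-Hochberg over 21977 genes). Each gonad was also fitted alone. Every SE is the size of the log2 value over the square root of its F statistic. A gene measured in both gonads passed the expression filter of each gonad's fit. The ovary and testis log2 ratios come from these separate fits, so their difference can depart slightly from the jointly fitted value. Alternatives were other scalings and filters, DESeq2 1.42.0, limma 3.58.1 voom with weights by gonad, a replicate block and 16 fits that each leave out 1 library. The code was tested on simulated data. Chi-square values per degree of freedom between replicates ran from 2.37 to 34.3. Each library was counted once, and these values do not show whether the libraries come from separate animals.

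Libraries carry numbers within groups. Deviations of same-numbered CV and GF ovaries correlated at 0.128 to 0.288 in all 4 pairs, and those of testes at -0.0214 to 0.0227. Differently numbered CV and GF ovaries ran from -0.346 to 0.304, a range that holds the same-numbered values. Whether the ovary numbers pair the libraries is stated by no label and is not settled by these values. The main fit has no block. Block fits are given as alternatives, and a blocked value is not given for every count.

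Members, lists (43, with 850 of 853 symbols found, 12 by annotation name) and rules were chosen with earlier results of these data known. Named genes were those called, averaging 1 CPM or more in a group and passing the filter in each gonad, up to 8 per pattern by smallest p, up to 4 that pass it in 1 gonad, up to 3 called members per list, 12 genes always, and the 6 most precise genes called in both gonads alike and not for the response difference. Predicted and unnamed genes were left out. Genes outside the rule, among them list members without a call and the histone partners, were chosen after their values were seen.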

Additional observations from a re-analysis of the deposited data

Results flagged for a closer look

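The test of the response difference itself marked 27 named genes. Positive log2 values, with the testis response above the ovary response, were Mapkapk2 at 1.03, Ryr2 at 1.79, Hes1 at 1.46, Akr1c21 at 8.36 (no bound, since GF ovaries are at 0), Hist1h2ae at 2.69, Rab4a at 1.03 and Gdi2 at 0.47. Others were Speer4c at 1.43, Scly at 1.30, Calml4 at 1.35, Gsdmd at 1.11, Camsap3 at 0.66, Rabgap1l at 0.34 and Fcgr3 at 1.49. Negative values were Hist1h2bp at -2.15, Pom121l2 at -4.48 (dependent on the prior count), Swt1 at -0.63 and Dars at -0.52. Further ones were Zscan12 at -0.79, Nnt at -0.73 and Kdm4a at -0.53. Others were Cage1 at -0.68, Fam193b at -0.56, Tenm3 at -0.61, Ogfod2 at -0.71, Itga2 at -1.08 and Lgals8 at -0.49.

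In 8 of 123 gene and group values looked at, 1 library stood apart from the rest of its group by Dixon's criterion. Chance meets this criterion in about 1 of 20 groups. The groups looked at were CV ovaries, GF ovaries and CV testes, and GF testes were not screened. In the ovary these were Mapkapk2 in CV library 4 (81.4 CPM), Fam193b in CV library 2 (45.6 CPM) and Insl3 in GF library 4 (10.4 CPM). In the testis they were Hist1h2bp (54.4 CPM), Gdi2 (307 CPM) and Lgals8 (335 CPM) in CV library 4, and Ryr2 (1.22 CPM) and Scly (16.7 CPM) in CV library 3. Without CV testis library 3 the call of Scly ended (adjusted p = 0.0552), and that of Ryr2 held.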

How the results depend on the processing

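The 29 called genes kept the sign of their log2 value in every fit run. Called genes numbered 25 with RLE scaling, 26 with raw totals, 32 with no filter, 37 with only genes measured in each gonad and 25 without robust dispersions. DESeq2 called 127 (59 higher, 68 lower; 3432 adjusted p not given), limma-voom 52 (28 higher, 24 lower), the replicate block within both gonads 28 (17 of the 29 among them) and the replicate block in the ovary only, added after the data were seen, 172 (101 higher, 71 lower). By gonad the DESeq2 calls were 74 in the testis alone, 14 in the ovary alone, 8 in both alike, 1 in both oppositely and 30 in neither. Limma-voom gave 43 in the testis alone. For the block fits the gonad calls came from the blocked joint fit itself. There the replicate block within both gonads gave 14, 10, 1 and 1 for the first 4 of these. The block in the ovary only gave 53, 87, 12, 7 and 13 for all 5. Ovary-alone genes numbered 1 with raw totals and 1 without robust dispersions, where 1 was called in both alike. With germ-free calls of each gonad from the joint fit, 93 genes were called in the ovary and 122 in the testis, 6 of the 29 in the ovary alone and 1 in both oppositely. As a difference in CPM, chosen after seeing the data, 26 of the 29 kept their sign, and the reversed ones were Pom121l2 at 8.99 CPM, Ryr2 at -17.3 CPM and Hist1h2ae at -0.941 CPM. Leaving out 1 library gave 13 to 37 calls (7 to 20 higher, 6 to 17 lower), with 10 to 30 in the testis alone, 1 to 3 in the ovary alone, 1 to 3 in both alike, 0 in both oppositely and 0 to 5 in neither, 25 to 33 germ-free calls in the ovary, 996 to 2084 in the testis and an r across genes of 0.278 to 0.311. The cause of these changes was not tested. All 4 groups share 1 dispersion per gene in the joint fit, although the ovary has the wider spread. Ovary libraries also hold fewer counts. What part the spread and the counts have in the calls was not tested.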

Other observations

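DESeq2 and limma-voom both called 20 genes that edgeR's test did not, 6 of them on chromosome 13 and 3 on chromosome 1. These genes were singled out after their values were seen. Tbc1d7, a subunit of the TSC complex that restrains mTORC1, had a response difference of -0.91 (edgeR adjusted p = 0.0625, voom 0.0240), with -0.09 in the ovary and -0.97 in the testis. Rnf144b, a ubiquitin ligase, had 0.50 (edgeR adjusted p = 0.0625, voom 0.0177), with -0.08 in the ovary and 0.43 in the testis. Itpr3, an inositol trisphosphate receptor that like Ryr2 releases stored calcium, had 0.50 (edgeR adjusted p = 0.0939, voom 0.0377), with -0.20 in the ovary and 0.33 in the testis. Clip2, which binds microtubule ends, had 0.72 (edgeR adjusted p = 0.0613, voom 0.0294), with 0.01 in the ovary and 0.75 in the testis. Hist1h4c, a histone H4 gene, fell in the testis by 0.79 on the log2 scale and had -0.39 in the ovary, with a response difference of -0.43 (edgeR adjusted p = 0.116, voom 0.0278).

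Cell junction genes held 4 of 20 with an unadjusted p under 0.05, beside 6.93% of all genes, and no call. Marveld2, the tricellular junction protein tricellulin, rose in the testis by 0.93 (adjusted p = 0.00301) and had 0.05 in the ovary, with a response difference of 0.86 (adjusted p = 0.373). Cldn11, the claudin of the barrier between Sertoli cells, had -0.76 in the ovary and -0.05 in the testis, with a response difference of 0.69 (adjusted p = 0.504). Among imprinted genes Cdkn1c, an inhibitor of cyclin-dependent kinases, rose in the testis by 0.41 (adjusted p = 0.000608) and had -0.24 in the ovary, with a response difference of 0.63 (adjusted p = 0.541). Grb10, an adaptor of insulin and growth factor receptors, rose in the testis by 0.21 (adjusted p = 0.00242) and had -0.07 in the ovary, with a response difference of 0.26 (adjusted p = 0.279). Rpl10a and Rps15, proteins of the cytosolic ribosome, rose in the testis by 0.29 each, and their response differences of 0.31 and 0.20 were not called (adjusted p = 0.263 and 0.372).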
